A study of Homo sapiens with 8 samples.

Results

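The genes described here are 43 members of the amino acid response: 20 cytosolic aminoacyl-tRNA synthetases, ATF4 with 4 other transcription factors of the stress response, 8 enzymes of serine and folate metabolism, 6 amino acid transporters and 4 other targets of ATF4. They were taken by gene symbol from a list drawn up with earlier results of these data known, out of 63677 gene identifiers in the count tables. RNA was sequenced from MOLT-4 and DND-41, established human lines of T-cell acute lymphoblastic leukaemia, after 24 h in medium with 100 nM ACBI-1 or with DMSO, the solvent. ACBI-1 is a PROTAC that binds the bromodomains of SMARCA2, SMARCA4 and PBRM1, subunits of the SWI/SNF chromatin remodelling complexes, and recruits the VHL ubiquitin ligase to them. The 4 groups were ACBI-1 and DMSO in MOLT-4 and ACBI-1 and DMSO in DND-41, each with 2 libraries. The labels name no genetic change in either line and do not say whether the libraries of a group came from separate cultures, so p-values measure only the spread between libraries, which may be technical.

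Aminoacyl-tRNA synthetases load each amino acid onto its tRNA. When amino acids run short, uncharged tRNA activates the kinase GCN2, which phosphorylates the initiation factor eIF2alpha, and other stresses reach the same step through PERK, HRI and PKR. General translation then slows while the mRNA of the transcription factor ATF4 is translated more efficiently. ATF4 binds the C/EBP-ATF response element and raises transcription of synthetases, amino acid transporters, asparagine synthetase and the serine and mitochondrial folate enzymes. MYC binds the E-box CACGTG at many of the same promoters, and leukaemic T cells rely on amino acid import and on serine-derived folate units for nucleotide synthesis. ATF4 protein was not measured, and much of its control is translational.

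Promoter stretches are shown for members that hold the letters of either element and passed the MOLT-4 test described below. The letters TGATGNAA, the core of the C/EBP-ATF response element, were searched on both strands. Their first bases, TGA, also begin AP-1 and CRE sites. The E-box letters CACGTG read the same on both strands. In RefSeq promoters of build GRCh38.p14, taken as the 250 bases before a gene's start, TGATGNAA was found at 9 of the 54 starts of members (16.7%) and at 3.14% of the 35116 starts in the table. CACGTG was found at 7 of the 54 (13.0%) and at 6.34% of all starts. RefSeq entries were matched for 34 of the 43 members. Of 9 members that held either set of letters and passed the test, the 6 with the smallest adjusted p are shown, 5′ to 3′ on the strand of the gene, with the letters searched in capitals. Where the letters reach into an annotated exon, 30 bases around them are given.
SLC1A5: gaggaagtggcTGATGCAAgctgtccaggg
SLC7A5: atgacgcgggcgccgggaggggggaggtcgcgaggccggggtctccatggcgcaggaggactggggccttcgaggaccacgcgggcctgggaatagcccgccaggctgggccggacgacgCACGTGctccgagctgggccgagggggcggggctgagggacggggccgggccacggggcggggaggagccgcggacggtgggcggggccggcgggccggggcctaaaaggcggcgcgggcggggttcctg
GARS: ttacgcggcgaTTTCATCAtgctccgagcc
ASNS: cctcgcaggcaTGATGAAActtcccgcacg
MTHFD1L: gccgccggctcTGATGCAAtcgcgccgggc
ATF3: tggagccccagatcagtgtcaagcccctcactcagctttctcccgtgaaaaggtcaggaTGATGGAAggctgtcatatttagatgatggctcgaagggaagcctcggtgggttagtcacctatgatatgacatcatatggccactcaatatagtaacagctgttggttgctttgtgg
The stretch of SLC1A5 lies at chr19:46784893-46784922 (minus strand), that of SLC7A5 at chr16:87869508-87869757 (minus strand), and that of GARS at chr7:30594834-30594863 (plus strand). The ASNS stretch lies at chr7:97872458-97872487 (minus strand), that of MTHFD1L at chr6:150866346-150866375 (plus strand), and that of ATF3 at chr1:212565157-212565333 (plus strand). Counted back from the start used for each stretch, the first letter stands at position -97 in SLC1A5, -33 in GARS and -68 in ASNS. It stands at -90 in MTHFD1L and -191 in ATF3, and the E-box of SLC7A5 at -130. MTHFD1L also holds CACGTG at -115, outside the bases shown. SLC1A5, GARS, ASNS, MTHFD1L and ATF3 have 3, 2, 2, 4 and 2 starts, and a start with the letters is shown. Start 2 of SLC1A5 holds CACGTG at -50, and start 3, the furthest upstream, holds neither set of letters. In GARS the element is read on the other strand. Of these 6 genes, ASNS was higher with ACBI-1 in MOLT-4 and the other 5 were lower, so members with the same letters moved in both directions. A match of letters is a description of the sequence and does not show binding.

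Total counts were between 21308737 and 22067644 per library, and the members took 0.592% to 0.594% of counts in MOLT-4 with ACBI-1 and 0.664% to 0.666% with DMSO, against 0.773% to 0.921% in the DND-41 libraries. Levels are given as CPM, counts scaled for depth with TMM over all 8 libraries. All 9 T-lineage markers were expressed in MOLT-4, where 2 rose and 6 fell with ACBI-1, and in DND-41 as well, except that PTCRA, the pre-T-cell receptor alpha chain, stood at 0 to 0.0427 CPM in DND-41. Of 13 markers of other cell types, 4 had no count in any library, while CD79A, a B-cell receptor component, had 177 to 735 CPM in DND-41 and was lower with ACBI-1 in MOLT-4 (0.512 and 0.277 CPM, against 4.56 and 4.57 CPM with DMSO). The other 12 markers summed to 20.5 CPM in MOLT-4 ACBI-1 replicate 2, mostly from the collagen genes COL1A1 (14.4 CPM) and COL1A2 (5.13 CPM), and to 1.12 CPM in ACBI-1 replicate 1, against 1.39 and 2.04 CPM in the MOLT-4 DMSO libraries. The DND-41 libraries resembled each other by replicate number rather than by label. The chi-square per degree of freedom over genes was 5.49 and 5.09 between the libraries labelled ACBI-1 and DMSO that share a number, and 68.3 and 64.6 between both numbers within a label, while in MOLT-4 it was 2.65 and 1.52 within a label and at least 49.4 between labels. For DND-41, log2 fold changes listed by the authors' deposited table matched number 2 over number 1 within 0.001 for 100% of 27069 genes and ACBI-1 over DMSO as labelled for 0.151%. For MOLT-4, 100% of 27777 genes in the authors' deposited table matched the labels. DND-41 levels are given per library, except for means per kilobase of exon and summed counts, and groups are called as labelled.

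In MOLT-4 most of these genes were lower with ACBI-1, and the subgroups differed in the size of the change and in how uniform it was. Of the 43 members, 42 passed the low-count filter, 30 fell, 5 rose and 7 did not pass edgeR's quasi-likelihood F-test at a Benjamini-Hochberg adjusted p of 0.05, with ALDH1L2 too low to test. Over all 14618 genes tested, 58.4% passed, 28.2% as higher and 30.2% as lower, so passing the test was common in this comparison. The median log2 fold change was -0.24 over the 42 members and 0.01 over all genes tested. In RNA from whole cultures, less RNA per cell and fewer cells of a given state cannot be told apart. The libraries did not overlap for 38 of the 43 members, 31 with both ACBI-1 libraries below both DMSO libraries and 7 with both above, and 77.7% of all genes tested also did not overlap. The middle 50% of all genes tested spanned log2 fold changes of -0.25 to 0.33. Scaled by total counts, which moves the median of all genes by 0.12 on the log2 scale, 9 members were higher and 23 lower. Of all 14618 genes, 5804 were then higher and 3031 lower. By subgroup that scaling gave 3 higher and 14 lower synthetases, 2 higher and 2 lower transcription factors, 0 higher and 4 lower serine and folate enzymes, 2 higher and 3 lower transporters, and 2 higher and 0 lower other targets, with the sign of each median kept. CARS, HARS, IARS, DDIT3, SHMT1, MTHFD2 and PYCR1 no longer passed under that scaling, still with negative values. When the spread is estimated over all 8 libraries, DND-41 included, only 2 members pass, both lower, ATF3 and SLC7A5. Over all genes 544 of 16047 passed with that spread. Without ACBI-1 replicate 2, the library with the collagen counts, the log2 fold changes of HARS (-0.10), DDIT3 (-0.34) and PYCR1 (-0.13) stayed negative. Calls are not counted there, since 1 library remained in that group.

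**Figure D1:**
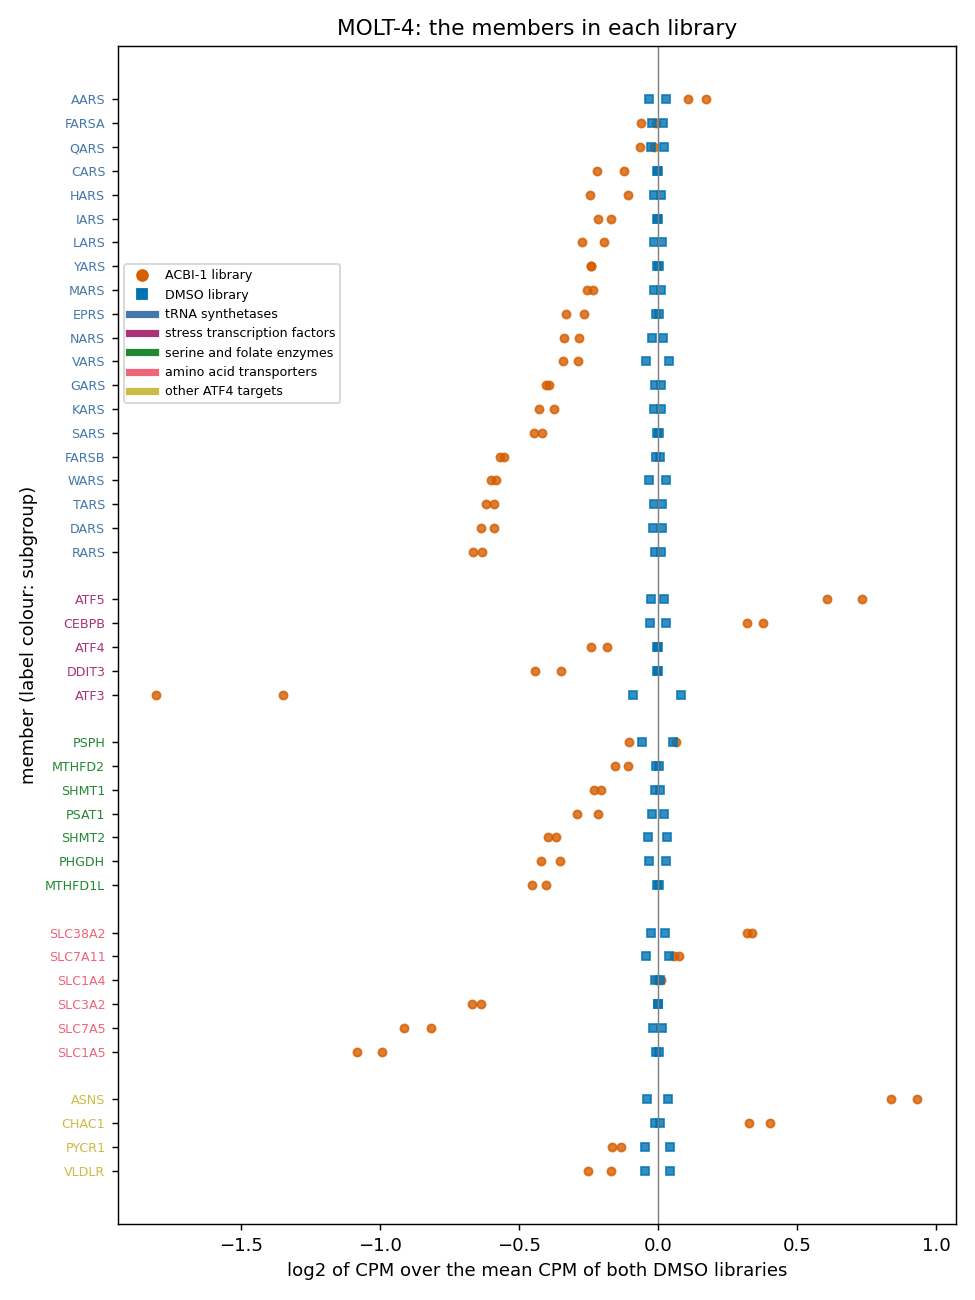
Each MOLT-4 library's CPM of the 42 tested members relative to the mean of both DMSO libraries, on a log2 axis, with ACBI-1 libraries as circles, DMSO libraries as squares and members grouped by role. ACBI-1 libraries lie left of the DMSO libraries for 17 of 20 synthetases, while ASNS, ATF5, CEBPB and SLC38A2 lie to the right.

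Among the cytosolic tRNA synthetases, 17 of 20 fell with ACBI-1, 1 rose and 2 did not pass, with a median log2 fold change of -0.30. The arginyl-tRNA synthetase RARS had 70.2 and 71.8 CPM in ACBI-1 libraries, against 112 and 110 CPM in DMSO libraries. It was the lowest of the subgroup, with which on the log2 scale is -0.64 (SE 0.05, adjusted p = 3.02e-16 by edgeR). The aspartyl-tRNA synthetase DARS had 106 and 110 CPM with ACBI-1, against 163 and 167 CPM with DMSO, a log2 fold change of -0.61. TARS, for threonine, had 132 and 135 CPM with ACBI-1, against 205 and 201 CPM with DMSO, a log2 fold change of -0.60. WARS, for tryptophan, had 85.7 and 86.7 CPM with ACBI-1, against 133 and 127 CPM with DMSO, a log2 fold change of -0.59. In all of these the libraries of a treatment lay close together and the treatments were well apart.

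Both chains of the phenylalanyl-tRNA synthetase, which is built of alpha and beta subunits, gave unequal values. FARSB, the beta chain, had 115 and 114 CPM with ACBI-1, against 170 and 168 CPM with DMSO, and fell by 0.56 on the log2 scale (SE 0.04, adjusted p = 5.82e-16 by edgeR). FARSA, the alpha chain, had 307 and 296 CPM with ACBI-1, against 313 and 305 CPM with DMSO, and its libraries overlapped. Its log2 fold change was -0.03 (95% interval -0.10 to 0.04, edgeR adjusted p = 0.475). Scaled by total counts, FARSA turned to 0.088 and passed (edgeR adjusted p = 0.0282). The difference between both chains was not tested.

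GARS, for glycine, had 241 and 243 CPM with ACBI-1, against 316 and 321 CPM with DMSO (log2 fold change -0.39). KARS, for lysine, had 269 and 280 CPM with ACBI-1, against 365 and 359 CPM with DMSO (log2 fold change -0.40), and SARS, for serine, changed by -0.43. The bifunctional EPRS, which charges glutamate and proline, had 162 and 170 CPM with ACBI-1, against 205 and 203 CPM with DMSO (log2 fold change -0.29). These 4 fell without overlap of the libraries. VARS at -0.31, NARS at -0.31, MARS at -0.24, YARS at -0.24, LARS at -0.23 and IARS at -0.19, which charge valine, asparagine, methionine, tyrosine, leucine and isoleucine, also fell. HARS (-0.17) and CARS (-0.17), for histidine and cysteine, were the smallest decreases that passed among the synthetases. Neither passed without the low-count filter (edgeR adjusted p = 0.102 and 0.0625). CARS did not pass with DESeq2 (DESeq2 adjusted p = 0.0972) or without ACBI-1 replicate 1, DMSO replicate 1 or DMSO replicate 2 (edgeR adjusted p = 0.109, 0.0651 and 0.0689). HARS was lost when either ACBI-1 replicate 2 (edgeR adjusted p = 0.107) or DMSO replicate 2 (edgeR adjusted p = 0.0549) was left out.

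AARS, for alanine, rose, alone among the synthetases under TMM scaling, with 298 and 285 CPM in ACBI-1 libraries, against 259 and 269 CPM in DMSO libraries. The log2 fold change of AARS was 0.14 (SE 0.04, adjusted p = 0.000865 by edgeR). AARS did not pass without the low-count filter (edgeR adjusted p = 0.102). The call was lost without ACBI-1 replicate 1 (edgeR adjusted p = 0.0519) and without DMSO replicate 1 (edgeR adjusted p = 0.0890). QARS, for glutamine, had 226 and 219 CPM with ACBI-1, against 225 and 232 CPM with DMSO, with overlapping libraries and a log2 fold change of -0.04 (edgeR adjusted p = 0.422). Scaled by total counts, QARS stood at 0.083 and passed (edgeR adjusted p = 0.0484).

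Several members share exon positions with a gene on the opposite strand, and the strand setting of the authors' counting is not given in the sources used here. Over all 8 libraries the counts of the overlapping gene were 60.7% (WDR55) and 40.8% (HARS2) of those of HARS, 47.3% (TERF2IP) of KARS, 41.0% (SMCR8) of SHMT1 and 24.7% (S100PBP) of YARS. WDR55 also fell in MOLT-4 (log2 fold change -0.46), while S100PBP (0.45) rose. The part of such shared positions in the values was not tested.

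The transcription factors did not move together: 2 rose and 3 fell in MOLT-4, with a median log2 fold change of -0.21. ATF4 itself fell, with 326 and 313 CPM in ACBI-1 libraries, against 370 and 369 CPM in DMSO libraries. On the log2 scale this was -0.21 (SE 0.04, adjusted p = 2.58e-06 by edgeR). ATF3, an ATF4 target and stress-induced factor, had 1.95 and 2.68 CPM with ACBI-1, against 7.23 and 6.41 CPM with DMSO. This change of -1.55 on the log2 scale (SE 0.17, adjusted p = 2.47e-10 by edgeR) was the largest of all members, at a low level. DDIT3, which encodes CHOP, a factor linked to cell death under prolonged stress, had 6.61 and 6.19 CPM with ACBI-1, against 8.42 and 8.39 CPM with DMSO. DDIT3 changed by -0.39 on the log2 scale (edgeR adjusted p = 0.00674), and it did not pass with DESeq2 (DESeq2 adjusted p = 0.102) or without ACBI-1 replicate 2 (edgeR adjusted p = 0.0681). Its exons overlap by 355 bases those of MARS on the opposite strand, whose counts were 3073% of its own, and MARS fell by 0.24 on the log2 scale.

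ATF5, a relative of ATF4 that is also under translational control, rose. It had 62.6 and 57.5 CPM with ACBI-1, against 37.1 and 38.3 CPM with DMSO, which on the log2 scale is 0.67 (SE 0.06, adjusted p = 1.49e-13 by edgeR). It shares 626 exon bases with NUP62 on the opposite strand, whose counts in MOLT-4 were 589% of those of ATF5. NUP62 itself changed by -0.05 (edgeR adjusted p = 0.279). CEBPB, a partner of ATF4 on the response element, rose with 17.5 and 18.2 CPM, against 14.3 and 13.7 CPM with DMSO, which on the log2 scale is 0.35 (SE 0.09, adjusted p = 0.00065 by edgeR). Both ACBI-1 libraries lay above both DMSO libraries for ATF5 and CEBPB, and below them for ATF4, ATF3 and DDIT3.

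Of the serine and folate enzymes, 6 of 7 tested fell in MOLT-4, none rose, and the median log2 fold change was -0.25. PHGDH, which catalyses the first step from glycolysis into serine synthesis, had 207 and 198 CPM in ACBI-1 libraries, against 259 and 270 CPM in DMSO libraries. It changed by -0.38 (SE 0.04, adjusted p = 7.47e-12 by edgeR). PSAT1, the aminotransferase of the next step, had 76.6 and 80.7 CPM with ACBI-1, against 95.2 and 92.3 CPM with DMSO (log2 fold change -0.25). PSPH, the phosphatase that releases serine, had 38.9 and 34.7 CPM with ACBI-1, against 35.7 and 38.6 CPM with DMSO. Its libraries overlapped and its log2 fold change was -0.01 (95% interval -0.14 to 0.12, edgeR adjusted p = 0.878).

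SHMT2, the mitochondrial enzyme that splits serine into glycine and a folate-bound carbon, had 205 and 201 CPM with ACBI-1, against 258 and 270 CPM with DMSO (log2 fold change -0.38, SE 0.04, adjusted p = 8.03e-12 by edgeR). MTHFD1L, which releases formate from mitochondria, had 66.1 and 68.6 CPM with ACBI-1, against 90.8 and 90.3 CPM with DMSO. Its log2 fold change of -0.42 was the lowest of this subgroup. SHMT1, the cytosolic counterpart of SHMT2, changed by -0.21. MTHFD2, the mitochondrial dehydrogenase, had 144 and 148 CPM with ACBI-1, against 160 and 159 CPM with DMSO, a log2 fold change of -0.13 that was lost without DMSO replicate 1 (edgeR adjusted p = 0.0751). ALDH1L2, a mitochondrial formyl-folate dehydrogenase, had 5 and 8 counts with ACBI-1, against 5 and 4 counts with DMSO, and was not tested.

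After that of ATF3, the largest decreases of any member were those of 3 amino acid transporters, while another transporter rose. In MOLT-4, 3 fell, 1 rose and 2 did not pass, with a median log2 fold change of -0.32. SLC1A5, the glutamine importer ASCT2, had 89.7 and 84.3 CPM in ACBI-1 libraries, against 179 and 178 CPM in DMSO libraries, which on the log2 scale is -1.03 (SE 0.04, adjusted p = 2.03e-24 by edgeR). SLC7A5, the light chain LAT1 that brings in leucine and other large neutral amino acids, had 270 and 253 CPM with ACBI-1, against 481 and 470 CPM with DMSO, which on the log2 scale is -0.86 (SE 0.04, adjusted p = 1.00e-23 by edgeR). SLC3A2, the heavy chain CD98 that carries LAT1 to the membrane, had 117 and 115 CPM with ACBI-1, against 182 and 182 CPM with DMSO, which on the log2 scale is -0.65 (SE 0.04, adjusted p = 2.79e-18 by edgeR). Both chains of the leucine transporter and the glutamine importer fell without overlap of the libraries.

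SLC38A2, the SNAT2 carrier of small neutral amino acids, rose. It had 288 and 292 CPM with ACBI-1, against 235 and 227 CPM with DMSO, which on the log2 scale is 0.33 (SE 0.04, adjusted p = 1.72e-10 by edgeR). SLC7A11, the cystine light chain that also pairs with SLC3A2, had 12.9 and 12.8 CPM with ACBI-1, against 12.6 and 11.9 CPM with DMSO, a log2 fold change of 0.07 (95% interval -0.13 to 0.27, edgeR adjusted p = 0.561). SLC1A4, the ASCT1 carrier of serine and alanine and a relative of SLC1A5, had 87.1 and 87.8 CPM with ACBI-1, against 86.7 and 87.8 CPM with DMSO. Its log2 fold change was 0.01 (95% interval -0.09 to 0.10, edgeR adjusted p = 0.909), and it reached 0.13 and passed when scaled by total counts (edgeR adjusted p = 0.0167).

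Of all members ASNS, among the other ATF4 targets, had the largest increase. This enzyme makes asparagine, which asparaginase removes from the blood in the treatment of this leukaemia. It had 22.7 and 24.3 CPM in ACBI-1 libraries, against 12.4 and 13.1 CPM in DMSO libraries, a 1.85-fold difference (log2 fold change 0.89, SE 0.09, adjusted p = 3.43e-12 by edgeR). CHAC1, which degrades glutathione, had 4.23 and 4.02 CPM with ACBI-1, against 3.22 and 3.18 CPM with DMSO, a log2 fold change of 0.37 (edgeR adjusted p = 0.0701). It passed when scaled by total counts (edgeR adjusted p = 0.0152). PYCR1, a mitochondrial proline synthesis enzyme, had 110.2 and 108 CPM with ACBI-1, against 117 and 125 CPM with DMSO, and its log2 fold change of -0.15 was lost without ACBI-1 replicate 2 (edgeR adjusted p = 0.0698) or DMSO replicate 2 (edgeR adjusted p = 0.149). VLDLR, a lipoprotein receptor, had 2.79 and 2.96 CPM with ACBI-1, against 3.22 and 3.43 CPM with DMSO (log2 fold change -0.21, edgeR adjusted p = 0.368). The subgroup's median log2 fold change was 0.11. Tested against a change of at least 1.5-fold, 4 members passed, ASNS as higher and ATF3, SLC7A5 and SLC1A5 as lower. Of all 14618 genes tested, 1737 passed in the same way.

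**Figure D2:**
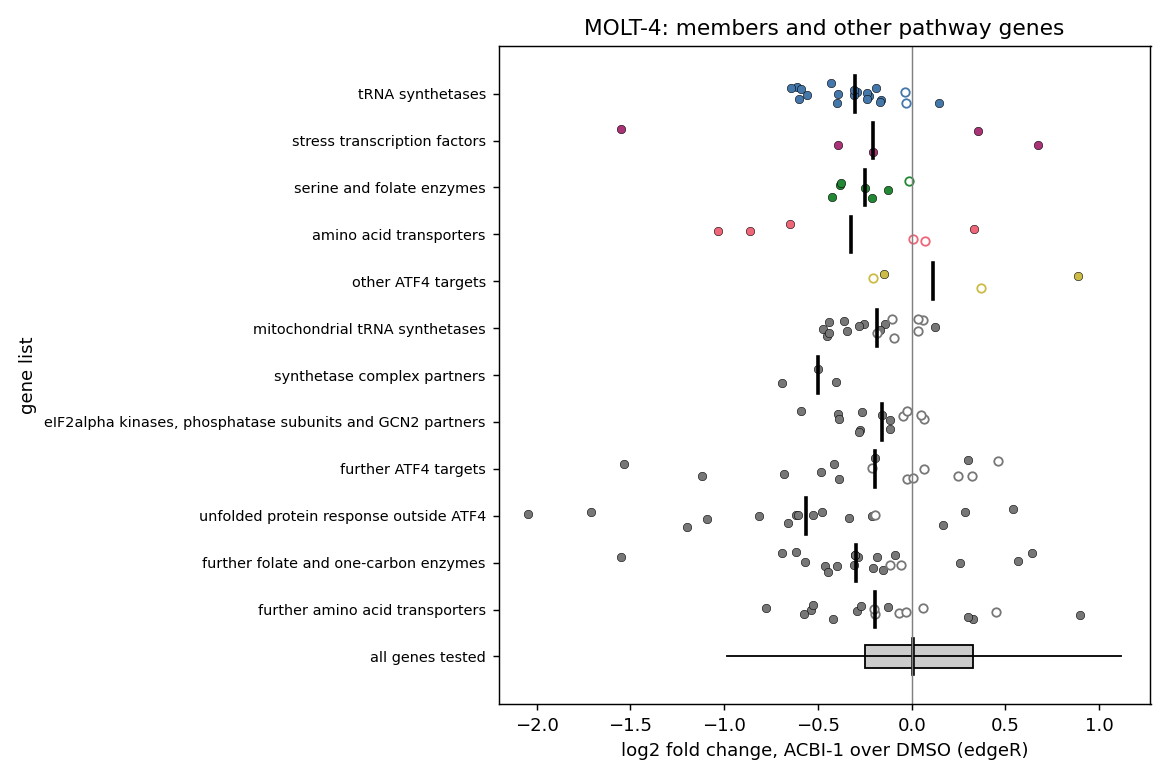
Log2 fold change, ACBI-1 over DMSO in MOLT-4, of each tested member by subgroup and of the other pathway genes, with filled points for genes past an adjusted p of 0.05, black bars for list medians and a box for all genes tested (25th to 75th percentile, whiskers 5th to 95th). The synthetases lie between -0.64 and 0.14, the transcription factors between -1.55 and 0.67 and the transporters between -1.03 and 0.33.

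Genes of the same pathways outside the 43 members gave the following in MOLT-4. There 58.4% of all genes tested passed, 28.2% as higher and 30.2% as lower. Near that share, 64.7% of mitochondrial synthetases and of further amino acid transporters passed, and 53.3% of further ATF4 targets. The share was 69.2% for the genes around eIF2alpha, 90% for further folate enzymes and 93.8% for the unfolded protein response. Of 17 mitochondrial tRNA synthetases, 10 fell and 1 rose, with a median log2 fold change of -0.19. CARS2 (-0.36), MARS2 (-0.47), EARS2 (-0.44) and TARS2 (-0.44) had the smallest adjusted p, and VARS2 (0.12) was the gene that rose. In these lists the genes that rose are named after their values were seen. All 3 scaffold partners of the cytosolic multi-synthetase complex fell: AIMP2 by 0.69, EEF1E1 by 0.50 and AIMP1 by 0.40 on the log2 scale. Of 13 tested genes for eIF2alpha, its kinases, exchange factor, phosphatase subunits and GCN2 partners, 9 fell and none rose under TMM scaling, against 5 and 1 when scaled by total counts, with a median of -0.16. EIF2B5, the catalytic subunit of the exchange factor, changed by -0.59, EIF2B3 by -0.39, EIF2S1, which encodes eIF2alpha, by -0.39, and GCN1L1, the GCN2 partner, by -0.28.

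Of 15 further ATF4 targets tested, 7 fell and 1 rose, against 6 and 4 when scaled by total counts, with a median of -0.20. The translation repressor EIF4EBP1 changed by -0.68, the proline pathway enzyme ALDH18A1 by -0.41, and the mTOR inhibitor DDIT4 by -1.12, while CBS, which joins serine to homocysteine, changed by 0.30. Of the unfolded protein response outside ATF4, 12 of 16 genes fell and 3 rose, with a median of -0.57, the lowest of the pathway lists. In it, the chaperone HSPA5 had 184 and 176 CPM with ACBI-1, against 601 and 575 CPM with DMSO, a log2 fold change of -1.71. XBP1, the factor spliced by IRE1, had 30.4 and 28.6 CPM with ACBI-1, against 126 and 118 CPM with DMSO (log2 fold change -2.04), and HSP90B1 (-1.09) and MANF (-1.20) also fell. EDEM1 (0.54), ERN1 (0.28) and CALR (0.17) rose.

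Of 20 further folate enzymes tested, 15 fell and 3 rose, with a median of -0.30. GLDC, the glycine decarboxylase of mitochondria, had 9.95 and 8.78 CPM with ACBI-1, against 25.8 and 29.3 CPM with DMSO, a log2 fold change of -1.55. The mitochondrial folate carrier SLC25A32 changed by -0.57 and the plasma membrane folate carrier SLC19A1 by -0.44. AMT (0.56) and GGH (0.26) were among the genes that rose. Of 17 further amino acid transporters tested, 8 fell and 3 rose, with a median of -0.19. The arginine carrier SLC7A1 changed by -0.54, the taurine carrier SLC6A6 by -0.57, the glutamine carrier SLC38A5 by -0.78 and the leucine carrier SLC43A2 by -0.53. SLC7A3 (0.90), SLC38A7 (0.33) and SLC36A4 (0.30) rose.

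The authors' deposited table for MOLT-4 gives 4 members higher and 27 lower among the 43, at an adjusted p of 0.05, against 14.7% and 20.3% of its 16234 genes. By subgroup the authors' deposited table has 1 synthetase higher and 15 lower, and 1 transcription factor higher and 2 lower. It has 0 serine and folate enzymes higher and 6 lower, 1 transporter higher and 3 lower, and 1 other target higher and 1 lower. CARS, HARS, DDIT3 and CEBPB, which passed edgeR, did not pass there (DESeq2 adjusted p = 0.124, 0.0533, 0.159 and 0.0705).

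Compared in DMSO as labelled, MOLT-4 over DND-41, 16 of 42 tested members passed, 4 higher and 12 lower. There 35.1% of 15069 genes passed, 17.7% higher and 17.4% lower. The share of members that passed, 38.1%, was near that of all genes, and differences between the subgroups were not tested. All 4 MOLT-4 libraries lay above all 4 DND-41 libraries for 9 members and below them for 15, and 49.3% of all genes were separated in this way. Among transcription factors, 4 of 5 were lower in MOLT-4, and among transporters 4 of 6 were lower and none higher, while of the synthetases 1 was higher and 3 were lower. The DND-41 libraries labelled DMSO differed from each other, and each resembled the library labelled ACBI-1 of the same number. Whether both held untreated cells cannot be told, so these values are not certain to be untreated levels of DND-41. More members passed when a DND-41 library was left out and fewer when a MOLT-4 library was left out. The same held over all genes, so this was not particular to the members. PSAT1, PYCR1, ATF5, CEBPB, SLC7A11, SLC1A4 and VLDLR still passed without either replicate of MOLT-4. CARS, HARS, MARS, NARS, ATF4, DDIT3, SHMT2, SLC7A5 and SLC38A2 did not pass there.

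PSAT1 and PYCR1 were close to absent in DND-41. PSAT1 had 76.6 and 80.7 CPM with ACBI-1 and 95.2 and 92.3 CPM with DMSO in MOLT-4, against 0.375 and 0.297 CPM with ACBI-1 and 0.187 and 0.342 CPM with DMSO in DND-41. In DMSO this was 3779 counts in MOLT-4 against 12 in DND-41, a ratio of 309 per total count (95% interval 177 to 599, counting error only). PYCR1 had 4873 counts in MOLT-4 DMSO libraries, against 4 in those of DND-41, a ratio of 1196 (95% interval 467 to 4390, counting error only). In the edgeR comparison both passed, PSAT1 with an adjusted p of 0.000694 and PYCR1 with an adjusted p of 0.000476. The enzymes before and after PSAT1 were present in both lines. With DMSO as labelled, PHGDH had 259 and 270 CPM in MOLT-4, against 259 and 255 CPM in DND-41 (edgeR adjusted p = 0.825). PSPH had 35.7 and 38.6 CPM in MOLT-4, against 54.3 and 38.9 CPM in DND-41 (edgeR adjusted p = 0.229). SHMT2 was higher in MOLT-4 (log2 fold change 0.66, edgeR adjusted p = 0.0421), and so was HARS (0.37, edgeR adjusted p = 0.0430). Neither passed without the low-count filter (edgeR adjusted p = 0.0926 and 0.0737). HARS also did not pass when scaled by total counts (edgeR adjusted p = 0.185) or with DESeq2 (DESeq2 adjusted p = 0.0745).

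The members lower in MOLT-4 included ATF4, with 370 and 369 CPM in its DMSO libraries, against 704 and 631 CPM in the DND-41 libraries labelled DMSO. On the log2 scale this was -0.86 (SE 0.11, adjusted p = 0.00768 by edgeR). ATF5 had 37.1 and 38.3 CPM in MOLT-4, against 541 and 313 CPM in DND-41 (log2 fold change -3.52). The counts of NUP62, the gene on its opposite strand, were 589% of those of ATF5 in MOLT-4 and 55.8% in DND-41. CEBPB was lower in MOLT-4 by a log2 fold change of -2.06 and DDIT3 by -0.73. DDIT3 did not pass without the low-count filter (edgeR adjusted p = 0.0970) or with DESeq2 size factors (edgeR adjusted p = 0.0542). Among transporters, SLC7A11 had 12.6 and 11.9 CPM in MOLT-4, against 46.9 and 51.0 CPM in DND-41 (log2 fold change -2.01), and SLC1A4 had 86.7 and 87.8 CPM, against 407 and 253 CPM (log2 fold change -1.93). SLC7A5 at -0.94 and SLC38A2 at -0.82 were also lower in MOLT-4. VLDLR had 3.22 and 3.43 CPM in MOLT-4, against 38.6 and 40.0 CPM in DND-41 (log2 fold change -3.57). Of the synthetases, CARS (-0.92), NARS (-0.56) and MARS (-0.35) were lower. NARS and MARS did not pass without the low-count filter (edgeR adjusted p = 0.0602 and 0.0831), nor did MARS with DESeq2 (DESeq2 adjusted p = 0.109).

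Per kilobase of exon, as means over the libraries of each label, ATF4 stood highest of all members in both lines. It had 127 CPM per kb with ACBI-1 and 147 with DMSO in MOLT-4, and 247 and 266 in DND-41. In MOLT-4 with DMSO it was followed by FARSA at 127 and SLC7A5 at 100.2 CPM per kb, and in DND-41 with DMSO by SLC7A5 at 190 and ATF5 at 145 CPM per kb. With ACBI-1 SLC7A5 stood at 55.1 CPM per kb in MOLT-4.

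**Figure D3:**
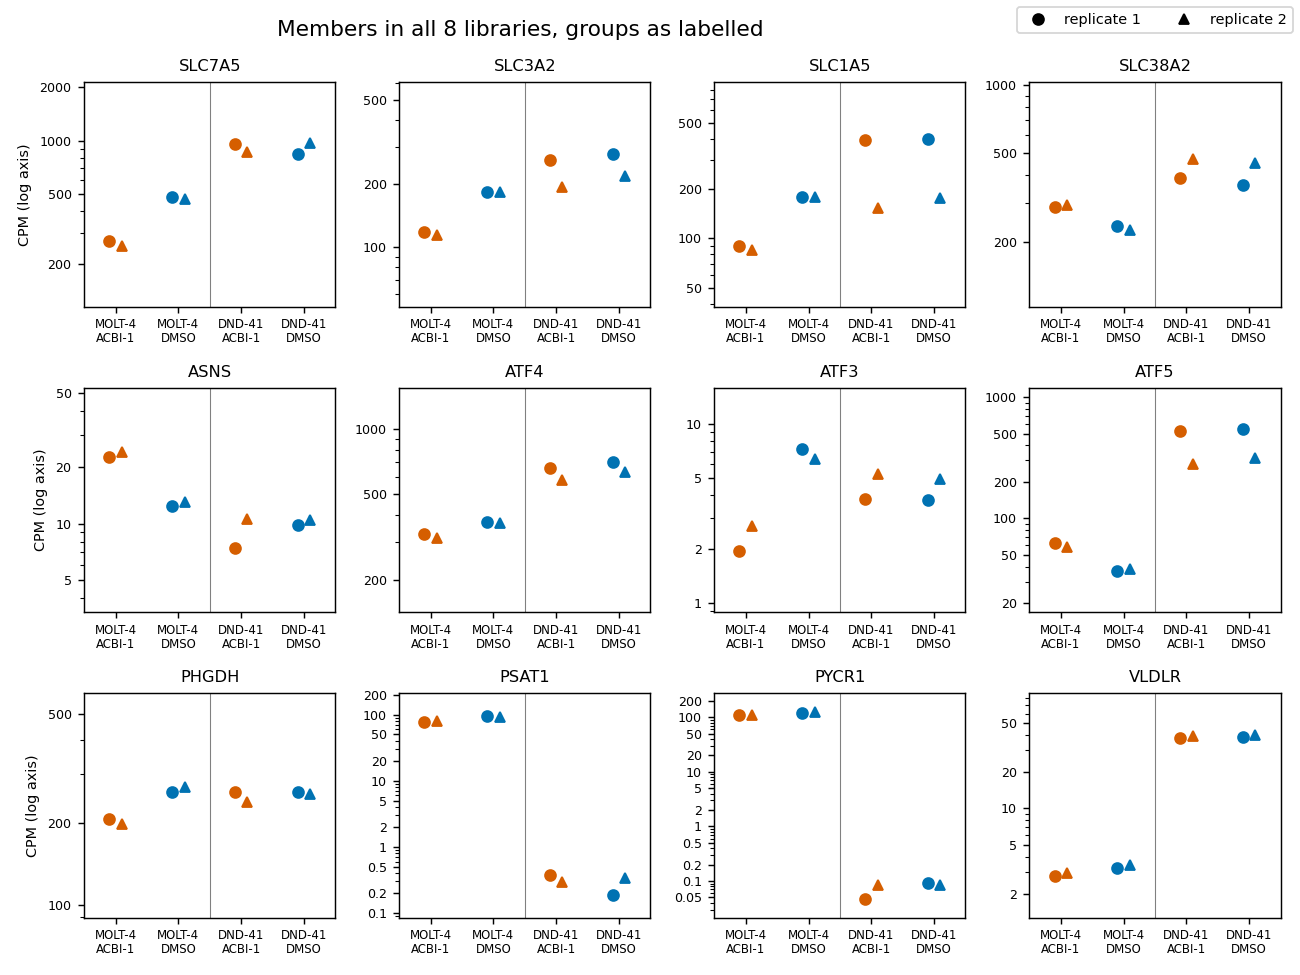
CPM on log axes of 12 members in each library, by line and treatment as labelled, with circles for replicate 1 and triangles for replicate 2. PSAT1 and PYCR1 lie below 1 CPM in all DND-41 libraries, and in DND-41 SLC1A5, SLC3A2 and ATF5 follow the replicate number rather than the label.

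In DND-41, with the libraries grouped as labelled, no member passed. Of 40 members tested none passed edgeR, none had an unadjusted p under 0.05, and none passed DESeq2; of all 14602 genes, 0% passed edgeR and 37 had an unadjusted p under 0.05. The members' log2 fold changes ran between -0.22 and 0.15, and the libraries of both labels overlapped for 40 of 43, where 16.1% of all genes were separated. The spread within a label was wide, so the interval for SLC1A5 ran from -1.78 to 1.61 around -0.08, and that for SLC7A5 from -0.40 to 0.43 around 0.01. A change of the size seen in MOLT-4 lay inside the interval of SLC1A5 and outside that of SLC7A5, with groups as labelled.

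Across replicate numbers the members did differ in DND-41. Both libraries numbered 2 lay below both numbered 1 for 28 of the 43 members and above them for 9, and 75.5% of all genes were separated by number. SLC1A5 had 153 CPM (labelled ACBI-1) and 176 CPM (labelled DMSO) in the libraries numbered 2, against 396 and 404 CPM in those numbered 1. FARSB had 70.6 and 76.1 CPM in the libraries numbered 2, against 163 and 168 CPM in those numbered 1. SLC38A2 had 469 and 449 CPM in the libraries numbered 2, against 384 and 360 CPM in those numbered 1, and CHAC1 had 10.6 and 12.8 CPM, against 5.26 and 5.81 CPM. Of the synthetases 16 were below in the libraries numbered 2 and 3 above (AARS, CARS and QARS), and of the transcription factors 4 were below and ATF3 was above. SLC7A5 overlapped, with 865 and 971 CPM in the libraries numbered 2, against 953 and 837 CPM in those numbered 1.

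**Figure D4:**
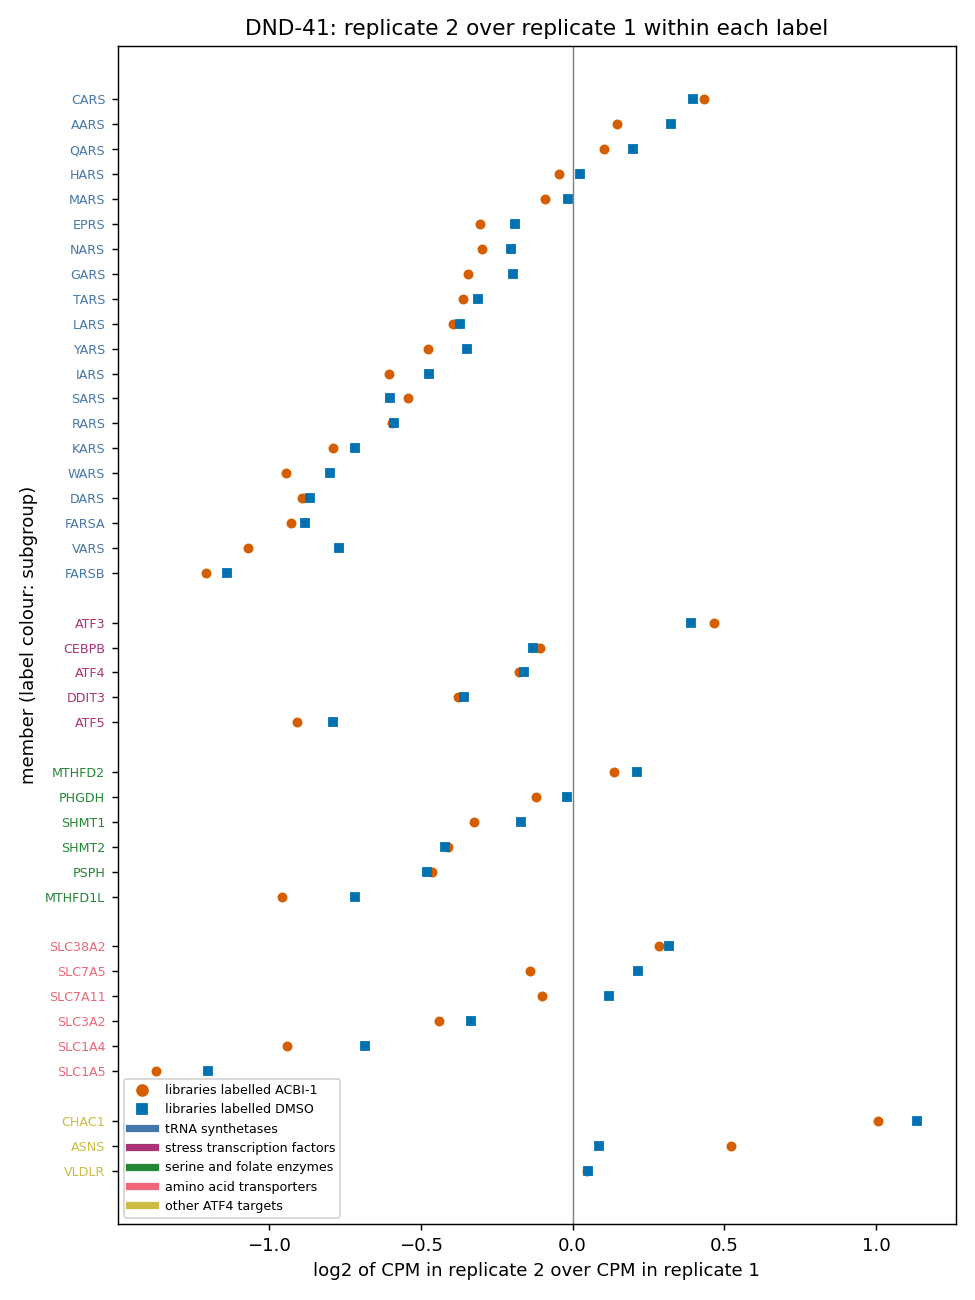
Log2 ratio of CPM in replicate 2 over replicate 1 of DND-41, within the libraries labelled ACBI-1 (circles) and within those labelled DMSO (squares), for the 40 tested members grouped by role. Circles and squares lie close together for most members, from SLC1A5 at the low end to CHAC1 at the high end.

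The authors' deposited table for DND-41, whose fold changes match number 2 over number 1, gives 4 members higher and 23 lower among 40 with an adjusted p, against 15.2% and 21.6% of its 14883 genes. Of the synthetases 2 were higher and 15 lower in the authors' deposited table, with a median log2 fold change of -0.41. SLC1A5 stood at -1.30, FARSB at -1.19, ATF5 at -0.86, MTHFD1L at -0.85, SLC38A2 at 0.29 and CHAC1 at 1.06 in the authors' deposited table. ASNS at 0.28 (DESeq2 adjusted p = 0.357) and SLC7A5 at 0.02 (DESeq2 adjusted p = 0.879) missed the threshold of the authors' deposited table. Which libraries held treated cells cannot be told from these files.

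The difference in response between the lines, MOLT-4 minus DND-41 with groups as labelled, passed for none of 42 members in edgeR, where 0.393% of 16047 genes passed. Of the members 5 had an unadjusted p under 0.05, as did 1611 of all 16047 genes. SLC7A5 differed by -0.87 (95% interval -1.24 to -0.51, edgeR adjusted p = 0.102), ATF3 by -1.62 (95% interval -2.53 to -0.71, edgeR adjusted p = 0.200) and ASNS by 1.07 (95% interval 0.43 to 1.71, edgeR adjusted p = 0.236). DESeq2 passed these 3, SLC7A5 at -0.89 (DESeq2 adjusted p = 0.000186), ATF3 at -1.64 (DESeq2 adjusted p = 0.0244) and ASNS at 1.05 (DESeq2 adjusted p = 0.0395). Over all genes DESeq2 passed 395 of 16047.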

How the data were processed

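Strand-specific paired-end libraries of total RNA were sequenced, per the labels' protocols. STAR 2.5.2a and featureCounts were used on build hg19, per the submitters' processing notes. The strand setting of the counting is not given in the sources used here. For each line the authors deposited whole-number counts by Ensembl identifier. The authors also deposited a table per line, from DESeq2 (1.12.4, per the submitters' processing notes), with log2 fold changes, p-values and adjusted p-values. Members were matched by symbol. VARS stood at 7 identifiers, all but 1 without counts. The MOLT-4 column names end in "redo", which no label explains.

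Tests used R 4.3.3 and edgeR 4.0.16, with TMM scaling, filterByExpr and the 2-sided quasi-likelihood F-test (Benjamini-Hochberg adjustment over all genes tested, threshold 0.05), within each line, between lines in DMSO and as the interaction of line and treatment. CPM are scaled over all 8 libraries. Alternatives were other scalings and filters, DESeq2 1.42.0, a replicate block, a shared spread, a 1.5-fold test and leaving out libraries. The steps were tested on simulated data. Exon lengths and overlaps came from GENCODE 29, on another build. All 43 members are named, and of each other list up to 4 genes with the smallest adjusted p. Some genes that this rule picks are not reported here. Members and lists were chosen with earlier results of these data known. Intervals on count ratios cover counting error only.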

Additional observations from a re-analysis of the deposited data

How the results depend on the processing

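In MOLT-4, of 42 tested members, 9 were higher when scaled by total counts, as were 5804 of all 14618 genes. With that scaling FARSA stood at 0.088 and QARS at 0.083 on the log2 scale. Without the low-count filter AARS, CARS, HARS and PYCR1 did not pass (edgeR adjusted p = 0.102, 0.0625, 0.102 and 0.0593), so 1 of the other ATF4 targets passed. Of all 27777 genes, 6049 passed without the filter. With a spread shared by all 8 libraries 2 members passed (0 higher and 2 lower), by subgroup 0 synthetases, 1 transcription factor, 0 serine and folate enzymes, 1 transporter and 0 other targets. Tested against 1.5-fold 4 passed (1 higher and 3 lower), by subgroup 0, 1, 0, 2 and 1 in the same order. Over all genes 544 of 16047 passed with the shared spread and 1737 of 14618 against 1.5-fold. When a MOLT-4 library was left out, calls are not counted here, since 1 library remained in its group. With either ACBI-1 replicate 1 or DMSO replicate 1 left out, AARS stood at 0.11 on the log2 scale. The labels do not say that replicate numbers pair the libraries. Deviations of same-numbered libraries correlated at 0.849 in DND-41 and 0.00928 in MOLT-4. With the replicate number as a block, DND-41 as labelled gave 1 member (1 lower, SLC3A2 at -0.13, edgeR adjusted p = 0.0457), the interaction gave 27 (5 higher and 22 lower), and MOLT-4 again gave 35. Over all genes the block gave 1349 calls in DND-41 and 5860 in the interaction, against 0 and 63 without it. DESeq2 gave 3 members in the interaction (1 higher and 2 lower). Leaving out a library gave 0 members in DND-41 as labelled and 0 in the interaction each time. Between the lines in DMSO, 2 members were higher without the filter. Over all 8 libraries 8566 of all 16047 genes differed, and of the members 28 differed (9 higher and 19 lower). Leaving out a library gave 7 to 38 (2 to 21 higher, 5 to 25 lower). Counts over all genes also rose without a DND-41 library and fell without a MOLT-4 library. This swing was therefore not particular to the members, and 1 library remained in a group each time. Without DND-41 replicates 2 and 1 the log2 fold changes were -0.17 and 0.72 for DARS and -0.43 and 0.20 for SARS. They were -0.24 and 0.093 for TARS and -0.53 and 0.29 for WARS. For YARS they were -0.23 and 0.14, and for MTHFD1L -0.20 and 0.54. The cause was not tested. With 2 libraries per group, the spread within DND-41 labels limits what its labelled comparison can show.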
